A study of Mus musculus with 4 samples.

Results

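Transcripts of 10 calcium-handling genes were followed in the newborn mouse kidney: 6 annexins (Anxa1 to Anxa6), the S100 genes S100a6, S100a10 and S100a11, and Myof, which encodes myoferlin. They are 10 of the 31053 genes in the count matrices, matched by symbol, and each had 1 matching row in both libraries. The genes were selected with earlier results of these data known: Anxa3, S100a6 and Myof were chosen because their difference between the libraries depended on the cell type, so their differences are given as a description only. Both libraries were made from whole kidneys of newborn mice, dissociated into single cells and captured in droplets with 3′ tag chemistry. The library labelled Six2CreTet2/3f/f carries the Six2Cre recombinase and floxed Tet2 and Tet3 alleles, and is called floxed. The library labelled Six2Cre carries the recombinase alone, and is called control. Six2Cre is present in both and is active in Six2-positive nephron progenitors and what descends from them, so ureteric bud, stroma, endothelium and blood are outside its reach. Each genotype had 1 library, so genotype, animal and library cannot be told apart, no test between genotypes was possible, and the intervals given here cover counting error alone. The 2 bisulfite sequencing samples of the series were not analysed here.

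Annexins are cytosolic proteins that bind acidic membrane lipids when calcium rises, and they link membranes to the actin cortex and take part in exocytosis and in resealing of torn membranes. S100 proteins are small calcium sensors that pair with annexins: S100a10 binds Anxa2, S100a11 binds Anxa1, and S100a6 binds several annexins as well as Cacybp. Myoferlin is a ferlin, a membrane protein with C2 domains that acts in vesicle fusion and membrane repair. Anxa1 is known as an inhibitor of inflammatory signalling that is abundant in neutrophils.

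The promoters of S100a6 and Myof are shown because the 2 genes gave the largest differences in opposite directions within the nephron lineage, and because Tet enzymes act on methylated cytosine, which in mammals lies mostly in CpG. Each stretch is the 250 bases before the RefSeq start (build GRCm38.p6), written 5′ to 3′ on the gene's strand, with every CpG in capitals. The S100a6 window lies at chr3:90612644-90612893 on the plus strand and the Myof window at chr19:38043578-38043827 on the minus strand.
S100a6: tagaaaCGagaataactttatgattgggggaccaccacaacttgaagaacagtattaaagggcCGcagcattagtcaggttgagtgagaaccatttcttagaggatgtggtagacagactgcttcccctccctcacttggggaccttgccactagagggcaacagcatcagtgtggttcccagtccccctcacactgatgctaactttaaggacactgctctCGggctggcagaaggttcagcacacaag
Myof: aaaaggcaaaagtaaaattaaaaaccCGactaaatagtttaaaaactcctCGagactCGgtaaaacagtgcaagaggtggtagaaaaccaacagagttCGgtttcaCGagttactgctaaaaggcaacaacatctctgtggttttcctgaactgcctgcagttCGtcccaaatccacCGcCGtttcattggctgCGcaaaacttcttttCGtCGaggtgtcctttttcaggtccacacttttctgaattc
The S100a6 window held 3 CpG, and 71.0% of the 32851 promoter windows in the table held as many or more. The Myof window held 11 CpG, which 35.6% of windows matched or exceeded, and the median window held 6. The search was for the letters CG, which read the same on both strands. No methylation was measured here, so these counts say nothing of the state of either promoter. Of the 10 genes, 7 had a promoter window in the table. The genes Anxa5, S100a6, S100a10 and S100a11 lie on chromosome 3 with Tet2, at distances of 97.0, 42.8, 39.9 and 39.9 Mb.

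The floxed matrix held 22543 barcodes with 115427704 UMIs (counts of captured RNA molecules by molecular identifier), and the control matrix held 25736 barcodes with 197745868 UMIs. After filtering, 14393 floxed cells (median 4781 UMIs) and 19493 control cells (median 5993 UMIs) remained, and 174 barcode sequences occurred in both matrices. Cells were clustered without the member genes or their families and grouped into 13 classes by marker genes. The names were rebuilt from expression, so a class is called like its cell type: loop-like stands for the cells of Henle's loop and the distal tubule, and collecting system-like for ureteric bud and collecting duct cells. Tet3 summed to 41.7 CPM in floxed and 90.0 CPM in control progenitor-like cells and Tet2 to 21.8 (floxed) and 27.3 CPM (control); a 3′ tag can lie outside the deleted exons, so these levels do not check the deletion. Levels are given as CPM, a gene's summed UMIs scaled to the total UMIs of the class in that library, so that depth is levelled out. A difference was counted as past the size rule when the higher library had at least 25 CPM and the 95% interval of the ratio lay wholly beyond 1.5-fold. Free RNA in the suspension adds UMIs to cells of every type, and haemoglobin and other erythroid markers summed to 4570 CPM in floxed and 1140 CPM in control progenitor-like cells, and the part of free RNA in the low levels given here was not tested.

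**Figure D1:**
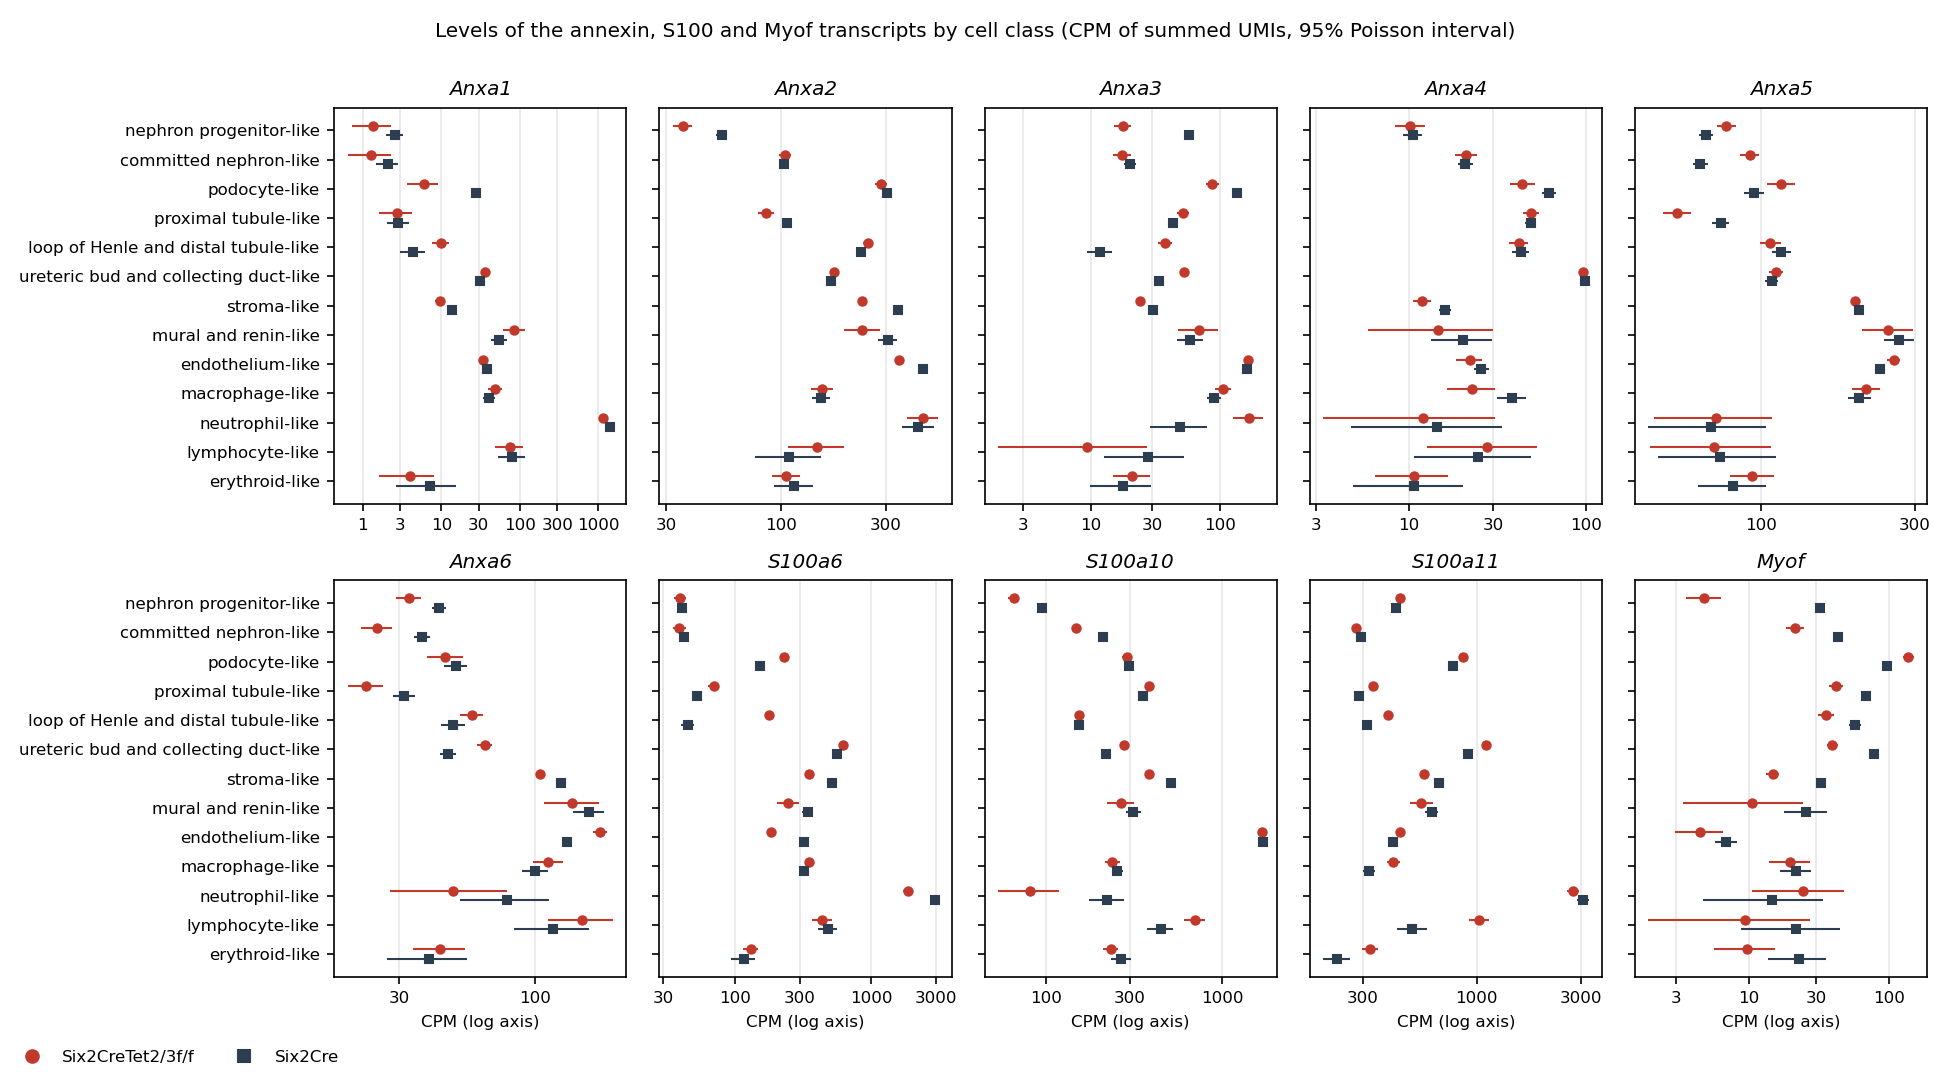
Level of each of the 10 genes in the 13 cell classes, in CPM on log axes that differ between panels; circles (upper point of each pair) are the Six2CreTet2/3f/f library, squares (lower point) the Six2Cre library, and bars are 95% Poisson intervals that cover counting error only. Anxa1, S100a6 and S100a11 peaked in neutrophil-like cells, S100a10 in endothelium-like cells, Anxa4 in collecting system-like cells and Myof in podocyte-like cells, in both libraries.

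Of the 10 genes, 6 had the same leading class in both libraries, and several genes shared one, as the plot of levels by class shows. Anxa1 had the widest range between classes, at 1143 CPM in floxed and 1414 CPM in control neutrophil-like cells, against 1.28 CPM in floxed and 2.08 CPM in control committed nephron-like cells. S100a6 also peaked in neutrophil-like cells, at 1862 (floxed) and 2908 CPM (control), and was lowest at 39.3 CPM in floxed committed nephron-like cells and at 40.9 CPM in control progenitor-like cells. S100a11 peaked there too, at 2763 CPM in the floxed and 3062 CPM in the control library. All 3 genes thus had their highest level in the same myeloid class. S100a6 stood at 617 CPM in floxed and 562 CPM in control collecting system-like cells (log2 ratio 0.14). That class held 31 floxed and 10 control cells that a finer clustering places in a urothelium-like cluster; without them, a comparison added after the data were seen, S100a6 stood at 541 (floxed) and 385 CPM (control; 0.49). S100a10 was highest in endothelium-like cells, at 1666 CPM in the floxed and 1689 CPM in the control library. It was present in all classes, with its lowest level in progenitor-like cells, at 65.9 (floxed) and 96.0 CPM (control). Anxa4, an annexin known from epithelia, was highest in collecting system-like cells, at 97.1 CPM in the floxed and 99.2 CPM in the control library. Myof was highest in podocyte-like cells, at 137 CPM in the floxed and 96.2 CPM in the control library, and lowest in endothelium-like cells, at 4.49 (floxed) and 6.89 CPM (control).

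Anxa2, the partner of S100a10, led in neutrophil-like cells of the floxed library (441 CPM) and in endothelium-like cells of the control library (440.3 CPM). It was lowest in progenitor-like cells of both. Anxa5, a phosphatidylserine-binding annexin, was highest in endothelium-like cells of the floxed library (258 CPM) and mural and renin-like cells of the control library (269 CPM). Anxa6 followed the same 2 classes, at 179 CPM in floxed endothelium-like cells and 162 CPM in control mural and renin-like cells. Anxa3 was highest in floxed neutrophil-like cells (166 CPM) and in control endothelium-like cells (162 CPM). Neighbouring classes in these orders often could not be separated: of the 12 neighbour pairs, overlapping intervals were found for between 5 (S100a6) and 11 (Anxa4 and Myof) in the floxed library, and between 6 (S100a6 and S100a11) and 11 (Anxa6) in the control library.

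**Figure D2:**
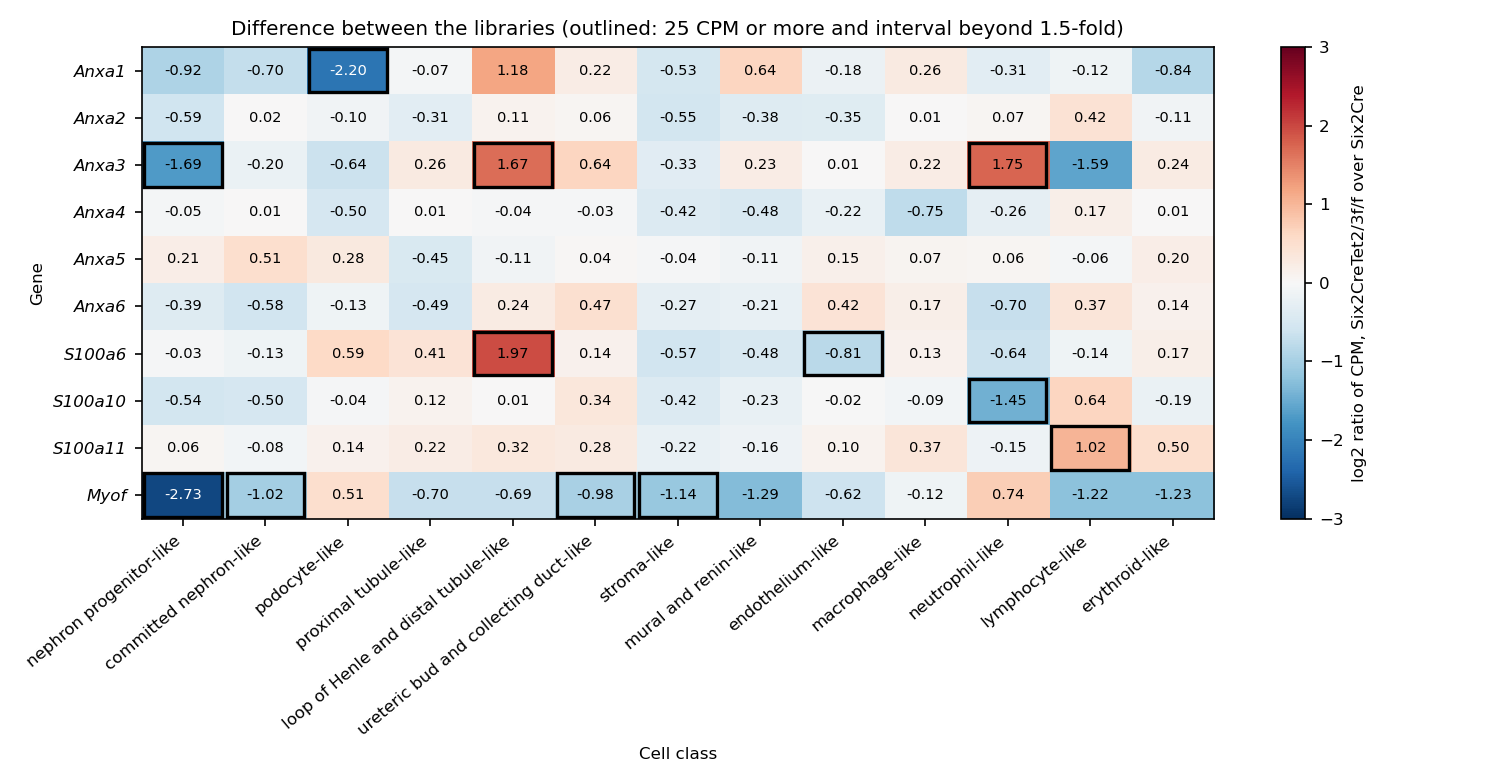
log2 ratio of CPM, Six2CreTet2/3f/f over Six2Cre, for each gene (down) and cell class (across); red is higher and blue lower in the Six2CreTet2/3f/f library, and outlined cells are past the size rule. Of the 130 values, 12 are outlined, 4 higher and 8 lower, and 4 of the lower ones belong to Myof.

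Between the libraries, 12 of the 130 gene and class pairs passed the size rule, 4 higher and 8 lower in the floxed library, as the map of ratios shows. In progenitor-like cells 2 of the 10 genes passed, both lower (Anxa3 and Myof), beside 3.47% of all tested genes; Anxa1 and Anxa4 were below 25 CPM in both libraries there and could not pass. In committed nephron-like cells 1 passed (Myof, lower), beside 1.98%, and Anxa1, Anxa3 and Anxa4 were below 25 CPM there and could not pass. In podocyte-like cells 1 passed (Anxa1, lower), beside 2.76%. None passed in proximal tubule-like cells, where the background was 4.33%. Both genes that passed in loop-like cells were higher (Anxa3 and S100a6), beside 3.81% of all genes there. Collecting system-like cells had 1 (Myof, lower), beside 4.12%. Stroma-like cells had 1 (Myof, lower), beside 3.39%. Endothelium-like cells had 1 (S100a6, lower), beside 2.99%. Neutrophil-like cells had 2 (Anxa3 higher, S100a10 lower), beside 2.1%. Lymphocyte-like cells had 1 (S100a11, higher), beside 2.94%. No member passed in mural and renin-like cells (background 1.63%), macrophage-like cells (5.15%) or erythroid-like cells (2.07%). Anxa1 was also below 25 CPM in proximal tubule-like, loop-like, stroma-like and erythroid-like cells. The same held for Anxa4 in stroma-like, mural and renin-like, neutrophil-like and erythroid-like cells, and for Anxa3 in erythroid-like cells. Myof was below it in endothelium-like, macrophage-like, neutrophil-like, lymphocyte-like and erythroid-like cells. Since 3 of the genes were selected for such differences, nothing is read from these counts against their background.

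Among the annexins, Anxa3 had opposite differences at the start of the nephron lineage and in its distal tubule. In progenitor-like cells it stood at 17.7 CPM (184 UMIs) in the floxed library and 57.2 CPM (1371 UMIs) in the control, 3.23-fold lower (interval 2.77 to 3.79). In loop-like cells it stood at 37.6 CPM (249 UMIs) in the floxed and 11.8 CPM (86 UMIs) in the control library, 3.19-fold higher (2.49 to 4.13). The loop-like log2 ratio of 1.67 became 2.89 with the 10000 deepest barcodes only. After thinning each cell to 1000 UMIs, 3.99% (2.55 to 5.93) of floxed and 2.01% (0.870 to 3.91) of control loop-like cells had an Anxa3 UMI, and unthinned 132 floxed and 64 control cells had one. The intervals of the thinned shares overlap. Each also overlaps that of erythroid-like cells of the same library (floxed 1.31 to 4.93, control 0.017 to 3.61), taken below as a class without the gene. The thinned shares thus do not set either loop-like level above background. Of the class's Anxa3 UMIs, the top 58 floxed cells held 70.3% and the top 40 control cells 72.1%. Committed nephron-like cells, which lie between, had 17.6 CPM in the floxed and 20.2 CPM in the control library, with an interval of the log2 ratio from −0.48 to 0.08. The floxed levels were therefore flat across progenitor-like and committed nephron-like cells, while the control level was high only in the first. In stroma-like cells, which Six2Cre does not target, Anxa3 had a log2 ratio of −0.33, and the progenitor-like ratio lay 1.36 below it (difference −1.36, interval −1.62 to −1.10).

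Counts of cells gave the same picture for Anxa3 in progenitor-like cells. After thinning each cell to 1000 UMIs, 1.90% (1.27 to 2.71) of 1530 floxed and 6.28% (5.37 to 7.29) of 2548 control progenitor-like cells had an Anxa3 UMI. Unthinned, 10.8% of floxed and 38.2% of control cells had one; their median UMI count was 6210 in the floxed and 7554 in the control library. In erythroid-like cells, taken as a class without the gene (median 4012 UMIs in the floxed and 4667 in the control library), the thinned shares were 2.71% (1.31 to 4.93; floxed) and 0.658% (0.017 to 3.61; control). The floxed progenitor share was no higher than the share in floxed erythroid-like cells, so it is not read as expression.

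A finer clustering (Leiden resolution 2), chosen after the data were seen, divided the lineage further. In the cluster led by Cited1 and Crym, genes of the most immature progenitors, Anxa3 stood at 16.2 CPM in the floxed and 62.3 CPM in the control library. In the cluster with Six2 and Col2a1 among its leading genes the values were 19.4 (floxed) and 46.3 CPM (control). In an unnamed cluster led by Rnase12 with Wnt4, a signal of nephron induction, they were 20.6 (floxed) and 38.7 CPM (control). The gap thus narrowed along this order. In the cluster led by Lhx1 and Npy, Anxa3 stood at 17.5 CPM in the floxed and 21.2 CPM in the control library. In an unnamed cluster led by Nppc and Spon1, with the distal regulator Sim2, it stood at 15.8 (floxed) and 9.04 CPM (control). In Slc12a1 and Umod cells, which mark the thick ascending limb, it stood at 44.9 (floxed) and 10.3 CPM (control). The floxed value was thus below the control value in the first clusters and above it in the Nppc-led and Slc12a1 clusters.

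**Figure D3:**
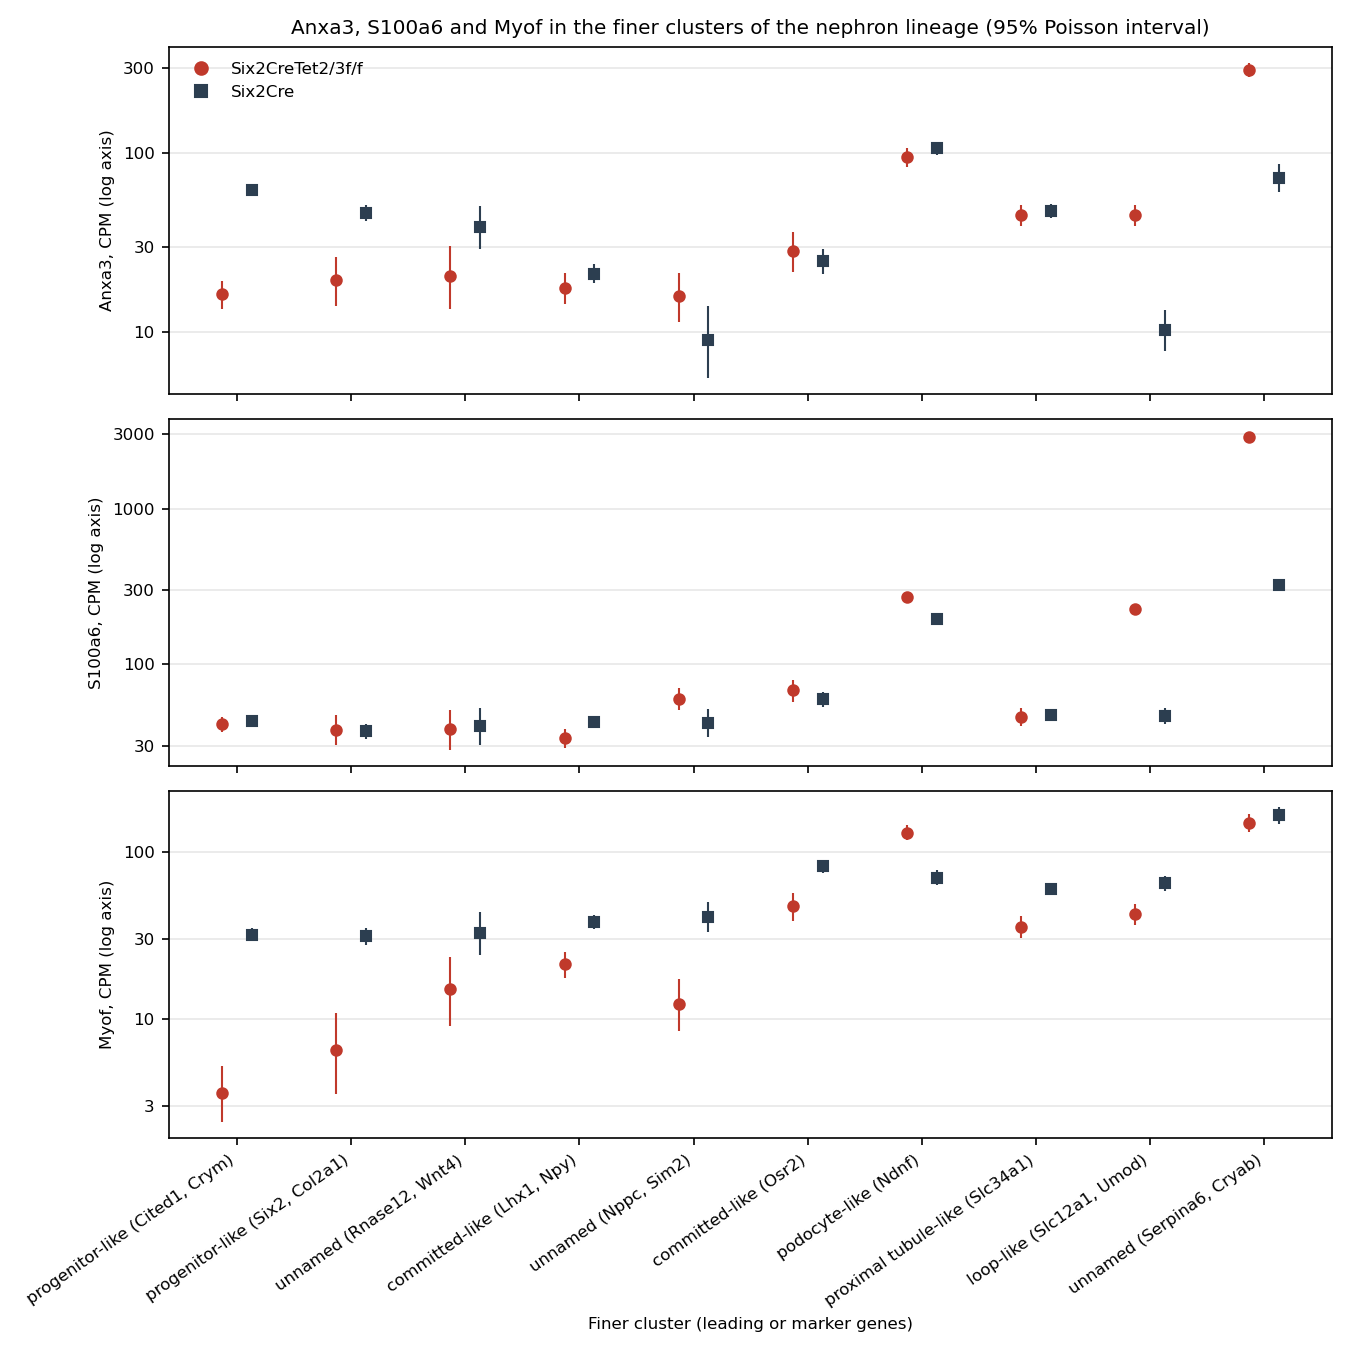
Anxa3, S100a6 and Myof in 10 finer clusters of the nephron lineage, in CPM on log axes; circles (left point of each pair) are the Six2CreTet2/3f/f library, squares (right point) the Six2Cre library, bars are 95% Poisson intervals, and the clusters stand in an approximate order from progenitors to tubule. Myof is lower in the floxed library in all but the podocyte-like cluster and the last, where its intervals overlap; Anxa3 is lower in the progenitor-like clusters and higher in the Slc12a1 and Serpina6 clusters, where S100a6 is also far higher.

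In podocyte-like cells led by Ndnf and Wnt16 Anxa3 stood at 94.9 (floxed) and 106 CPM (control). The podocyte-like class as a whole gave 87.2 CPM in the floxed and 135 CPM in the control library, a log2 ratio of −0.64, and the Ndnf-led cells make up different shares of it in the libraries. Outside the Six2 lineage, Anxa3 was 66.1 CPM in floxed and 32.8 CPM in control Aqp2-led collecting duct cells (log2 ratio 1.01, interval 0.79 to 1.24). In neutrophil-like cells it was 166 CPM (55 UMIs) in the floxed and 49.3 CPM (17 UMIs) in the control library, 3.37-fold higher with a wide interval (1.93 to 6.19). In endothelium-like cells, where it is abundant, the libraries had 163 (floxed) and 162 CPM (control).

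Anxa1 was lower in floxed podocyte-like cells, the only class in which it passed the size rule: 5.96 CPM (21 UMIs) in the floxed and 27.4 CPM (212 UMIs) in the control library, 4.59-fold lower (2.93 to 7.57). The log2 ratio of −2.20 became −1.16 with the 10000 deepest barcodes only, where it no longer passed. The class is a mixture whose make-up differs between the libraries: its Ndnf-led cluster holds 532 of 627 floxed and 611 of 1053 control cells, and had 3.22 CPM in the floxed and 5.23 CPM in the control library. The part of this make-up in the class value was not tested. Podocyte markers summed to 2196 CPM in the floxed and 2742 CPM in the control class, with 2 of 7 lower past the size rule. Endothelial markers summed to 68.7 (floxed) and 137 CPM (control) there and erythroid markers to 12230 (floxed) and 1407 CPM (control), and their part in the Anxa1 value was not tested.

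None of the other annexins passed the size rule in any class. Anxa2 stood at 35.6 CPM in floxed and 53.6 CPM in control progenitor-like cells (log2 ratio −0.59), while stroma-like cells had 232 (floxed) and 339 CPM (control; −0.55). In stroma-like cells all 10 genes were on the lower side in the floxed library, with a median log2 ratio of −0.42, beside −0.0014 for all tested genes. Anxa4 had log2 ratios between −0.05 and 0.01 in progenitor-like, committed nephron-like, proximal tubule-like, loop-like and collecting system-like cells. It was lower in macrophage-like cells, at 22.9 (floxed) and 38.5 CPM (control; −0.75), and its log2 ratio was −0.50 in podocyte-like, −0.48 in mural and renin-like, −0.42 in stroma-like and −0.22 in endothelium-like cells. Anxa5 was at 92.0 CPM in floxed and 64.8 CPM in control committed nephron-like cells (log2 ratio 0.51). Its smallest ratio among all classes was −0.45, in proximal tubule-like cells. Anxa6, a large annexin with doubled repeats, was at 24.5 (floxed) and 36.8 CPM (control) in committed nephron-like cells (−0.58) and at 179 (floxed) and 134 CPM (control) in endothelium-like cells (0.42).

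Among the S100 genes, the S100a6 difference lay late in the lineage and in few cells. In loop-like cells S100a6 stood at 178 CPM (1179 UMIs in 576 cells) in the floxed and 45.6 CPM (332 UMIs in 399 cells) in the control library, 3.91-fold higher (3.46 to 4.43). In progenitor-like cells the libraries had 39.9 (floxed) and 40.9 CPM (control), and in committed nephron-like cells 39.3 (floxed) and 42.9 CPM (control; log2 ratio −0.13, interval −0.31 to 0.06). These early classes hold the lowest S100a6 levels, and the libraries were close to each other there. The high level was carried by a small share of cells: the 58 floxed cells with the most S100a6 held 89.5% of its UMIs in the class and the highest single cell held 159, while the top 40 control cells held 60.8% and the highest held 38. After thinning to 1000 UMIs, 6.25% (4.42 to 8.55) of floxed and 4.76% (2.89 to 7.34) of control loop-like cells had an S100a6 UMI. Erythroid-like cells had higher shares, 9.76% (floxed) and 11.8% (control), so they are no gene-free comparison for S100a6 and a background share could not be set from them. Before thinning the shares were 30.4% (floxed) and 36.3% (control). With at least 3 UMIs after thinning there were 8 of 576 floxed cells (1.39%) and 0 of 399 control cells. The intervals of these shares overlap, so they do not set the libraries apart.

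Markers of other cell types were summed in the same cells. Ureteric bud and collecting duct markers summed to 562 CPM in floxed and 445 CPM in control loop-like cells, with 2 of 9 higher past the size rule. Urothelial markers, which belong to the cells richest in S100a6, summed to 0.907 (floxed) and 0.823 CPM (control), with 3 of 5 at 0 in the floxed and 2 of 5 in the control library. The class's own markers summed to 2633 (floxed) and 3200 CPM (control), with 2 of 7 lower. Erythroid markers summed to 4065 (floxed) and 1152 CPM (control), with 4 of 6 higher. The neutrophil transcript S100a8 stood at 19.4 CPM in the floxed and 4.94 CPM in the control class, while the neutrophil marker list summed to 6.35 (floxed) and 3.57 CPM (control). Of the 19 proliferation genes at the minimum level, 8 were lower, beside 3.81% of all tested genes, and 33.5% of floxed and 44.6% of control cells were called cycling. Among cells not called cycling the S100a6 log2 ratio was 1.45, beside 1.97 among all cells. The part of the other values in the S100a6 result was not tested.

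The finer clustering placed S100a6 more narrowly. In Slc12a1 and Umod cells it stood at 225 CPM in 339 floxed cells and 46.5 CPM in 254 control cells, 4.84-fold higher. In the Nppc-led distal cells it stood at 60.1 (floxed) and 42.1 CPM (control). The proximal tubule-like cluster led by Kap and Slc34a1 had 45.9 (floxed) and 47.4 CPM (control). The largest difference was in a small cluster that stayed unnamed, led by Serpina6, Cryab, Bst1 and Cp, with 168 floxed and 111 control cells. There S100a6 stood at 2898 CPM (4842 UMIs) in the floxed and 323.6 CPM (561 UMIs) in the control library, a log2 ratio of 3.16 (3.04 to 3.29). Among its partners and relatives there, Anxa3 stood at 292 (floxed) and 72.7 CPM (control), and S100a11 at 1021 (floxed) and 626 CPM (control). Anxa2 stood at 546 (floxed) and 306 CPM (control), and Anxa1 at 26.3 (floxed) and 7.50 CPM (control). These were all higher in the floxed library. Myof (floxed 150.2, control 167 CPM) and Anxa4 (floxed 85.0, control 89.4 CPM) had intervals that span no difference. So did the other annexins Anxa7 (floxed 46.7, control 46.7 CPM) and Anxa11 (floxed 26.9, control 27.1 CPM). Of the other S100 genes at 25 CPM or more, S100g, S100a1 and S100a16 were higher, and the interval of S100a13 (floxed 37.1, control 45.6 CPM) spans no difference.

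At the coarser clustering this unnamed group was divided. Of its 168 floxed cells, 95 lay in the proximal tubule-like class, 58 in unnamed cluster 19 and 15 in the loop-like class, and of its 111 control cells 64, 39 and 8. Cluster 19, led by Cryab, Bst1 and Cp, held most of the S100a6: 5922 CPM (4649 UMIs in 58 cells) in the floxed and 744 CPM (512 UMIs in 39 cells) in the control library. It had fewer than 50 control cells and was in no class. Without the Serpina6-led cells, S100a6 stood at 48.6 (floxed) and 53.2 CPM (control) in the proximal tubule-like class (log2 ratio −0.13), beside 70.1 (floxed) and 52.8 CPM (control; 0.41) with them. In the loop-like class it stood at 180.2 (floxed) and 45.8 CPM (control; 1.98) without them. This comparison was added after the data were seen. Tubule genes were present in the group: Cdh6, a cadherin of early proximal cells, stood at 306 CPM in the floxed and 441 CPM in the control library, Irx1 at 147 (floxed) and 129 CPM (control) and Slc12a1 at 47.3 (floxed) and 10.4 CPM (control). Of the collecting system's keratins, Krt19 stood at 297.5 (floxed) and 80.2 CPM (control) and Krt18 at 578 (floxed) and 376 CPM (control), while Aqp2 stood at 18.0 (floxed) and 44.4 CPM (control). Urothelial Upk1b, Upk2 and Krt5 were at 0 in both libraries. The urothelium-like cluster itself (76 floxed and 50 control cells) had the highest S100a6 of all finer clusters, 5673 CPM in the floxed and 12920 CPM in the control library, the opposite direction.

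Outside the nephron, S100a6 was lower in the floxed library where it was a vascular or interstitial transcript. In endothelium-like cells it stood at 184.5 CPM (1151 UMIs) in the floxed and 323 CPM (5531 UMIs) in the control library, 1.75-fold lower (1.64 to 1.87). It was lower in 4 of 4 finer endothelium-like clusters, and in 6 of 6 finer stroma-like clusters. Stroma-like cells as a class had 348 CPM in the floxed and 515 CPM in the control library (log2 ratio −0.57), short of the size rule. Mural and renin markers summed to 30.9 CPM in floxed and 104 CPM in control endothelium-like cells, and their part was not tested. In podocyte-like cells, which belong to the nephron, S100a6 stood at 229.7 (floxed) and 153 CPM (control; log2 ratio 0.59). Of the 2 finer podocyte-like clusters it was higher in 1 and lower in 1, and the part of the class's make-up was not tested. In Aqp2-led collecting duct cells, which Six2Cre does not target, S100a6 stood at 729.8 (floxed) and 483 CPM (control; log2 ratio 0.60, interval 0.54 to 0.66).

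S100a10 and S100a11, the partners of Anxa2 and Anxa1, were steadier. S100a10 stood at 65.9 CPM in floxed and 96.0 CPM in control progenitor-like cells (log2 ratio −0.54), and at 149 (floxed) and 210.0 CPM (control) in committed nephron-like cells (−0.50). The log2 ratios of its partner Anxa2 in these classes were −0.59 and 0.02. It passed the size rule in neutrophil-like cells alone, at 81.6 CPM (27 UMIs) in the floxed and 223.5 CPM (77 UMIs) in the control library, 2.74-fold lower (1.75 to 4.42). S100a11 was at 443 CPM in floxed and 425 CPM in control progenitor-like cells. It passed in lymphocyte-like cells, a class of 76 floxed and 53 control cells, at 1023 CPM (330 UMIs) in the floxed and 506 CPM (163 UMIs) in the control library, 2.02-fold higher (1.67 to 2.46). The class is a mixture, with Trbc2, Igkc, H2-Aa and Cpa3, genes of different blood cell types, among its leading genes. The part of its make-up in the S100a11 value was not tested. In the same class the neutrophil transcript S100a9 stood at 37.2 CPM (12 UMIs) in the floxed and 3.10 CPM (1 UMI) in the control library.

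Myof, the ferlin, was lower in the floxed library in 11 of 13 classes, with its largest difference in progenitors. Progenitor-like cells had 4.81 CPM (50 UMIs in 1530 cells) in the floxed and 32.0 CPM (766 UMIs in 2548 cells) in the control library, 6.65-fold lower (4.99 to 9.04). In committed nephron-like cells it stood at 21.4 (floxed) and 43.3 CPM (control), 2.03-fold lower (1.73 to 2.39). Collecting system-like cells had 39.2 (floxed) and 77.3 CPM (control; 1.97-fold lower, 1.78 to 2.19) and stroma-like cells 14.7 (floxed) and 32.4 CPM (control; 2.20-fold lower, 1.96 to 2.48). Both the collecting system and the stroma are outside the Six2Cre lineage, so a lower Myof was also measured there. Erythroid-like cells, used below as the background for Myof, had a log2 ratio of −1.23. Unthinned, 4.34% of floxed and 11.2% of control erythroid-like cells had a Myof UMI. The part of free RNA in the stroma-like and collecting system-like differences was not tested. Beyond the stroma-like difference, progenitor-like cells were lower by a further 1.59 on the log2 scale (difference −1.59, interval −2.04 to −1.15), whereas committed nephron-like cells were not separated from stroma-like cells (0.12, −0.17 to 0.41). Podocyte-like cells went the other way, at 137 CPM in the floxed and 96.2 CPM in the control library (log2 ratio 0.51, 0.34 to 0.67).

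Along the early lineage, the Myof difference was largest in the first cluster. In the Cited1 and Crym cluster it was 3.60 CPM in the floxed and 31.9 CPM in the control library, a log2 ratio of −3.15. It was 6.48 (floxed) and 31.4 CPM (control) in the Six2 and Col2a1 cluster, 15.1 (floxed) and 32.9 CPM (control) in the Rnase12 cluster, and 21.2 (floxed) and 38.2 CPM (control) in the Lhx1 and Npy cluster. The control level was thus nearly flat over these early steps while the floxed level was higher at each step. In the cluster led by Osr2 and Cdh6 Myof reached 47.4 CPM in the floxed and 82.4 CPM in the control library. In the Ndnf-led podocyte-like cluster it was 131.5 (floxed) and 70.6 CPM (control). In the Nppc-led cells, set on the distal side, Myof was 12.3 CPM in the floxed and 41.2 CPM in the control library. After thinning to 1000 UMIs, 0.588% (0.269 to 1.11) of floxed and 3.14% (2.50 to 3.89) of control progenitor-like cells had a Myof UMI, against 1.08% (0.296 to 2.75; floxed) and 1.32% (up to 4.67; control) of erythroid-like cells. The floxed progenitor share is therefore not read as expression. The interval of the control progenitor share also lay within that of control erythroid-like cells, so these shares do not set it above background. Floxed committed nephron-like cells had 1.65% (0.907 to 2.76) and floxed stroma-like cells 1.18% (0.886 to 1.53). Both intervals overlap that of floxed erythroid-like cells, so the same limit holds for their Myof levels. Without thinning the progenitor shares were 3.14% (floxed) and 23.0% (control).

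Beside these progenitor values, ureteric bud and collecting duct markers summed to 97.3 CPM in floxed and 103 CPM in control progenitor-like cells, and progenitor markers to 1170 (floxed) and 817 CPM (control). Of progenitor-like cells, 36.9% in the floxed and 47.7% in the control library were called cycling. Among cells not called cycling the log2 ratios were −1.85 for Anxa3 and −2.93 for Myof, beside −1.69 (Anxa3) and −2.73 (Myof) among all cells. Among progenitor-like cells with no collecting duct UMI they were −1.76 (Anxa3) and −2.90 (Myof). An unnamed cluster led by Has2, Crym and Six2 (219 floxed and 253 control cells) was kept out of the class by a limit set after the clusters were seen; its log2 ratios were −0.82 for Anxa3 and −2.69 for Myof.

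Lists of related genes gave little more. None of the other annexins passed the size rule in any class: 5 of the 6 on the list were in the matrices, and at most 2 reached 25 CPM in a class. None of the 5 other ferlins passed, and 1 reached the level, in endothelium-like cells. Of the 13 other S100 genes, 2 of the 5 at level in progenitor-like cells were lower, beside 3.47% of all tested genes: S100a16 at 22.8 CPM in the floxed and 44.9 CPM in the control library, and the vitamin D-dependent calcium binder S100g at 67.3 (floxed) and 118 CPM (control). Their list median there was −0.01 on the log2 scale, and that of all genes 0.04. In loop-like cells 0 of 4 passed (median −0.15, all genes −0.02), with S100a16 at 70.9 (floxed) and 82.5 CPM (control). S100a16 was lower past the size rule in stroma-like (floxed 35.7, control 84.6 CPM) and endothelium-like cells (floxed 252, control 451 CPM) as well. Of the list, 2 of 4 at level were lower in stroma-like cells (all genes 3.39%) and 2 of 6 in endothelium-like cells (2.99%). In macrophage-like cells 2 of 7 at level were higher and 2 lower, beside 5.15% of all tested genes. There S100a8 and S100a9, the calprotectin genes of neutrophils, had 1968 and 1696 CPM in the floxed library. In the control library they had 369 and 98.2 CPM. In lymphocyte-like cells 1 of 7 was higher (2.94%), and in erythroid-like cells 1 of 4 was lower (2.07%).

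Among 8 partner genes of annexins and S100 proteins, 2 passed in 1 class each. In progenitor-like cells 0 of 4 at level passed (median 0.32, all genes 0.04), and Cacybp, the S100a6 binding protein, stood at 192 CPM in the floxed and 165 CPM in the control library. Plau, which encodes urokinase, passed in proximal tubule-like cells at 81.0 (floxed) and 44.0 CPM (control). It was 1 of 5 at level there, beside 4.33% of all tested genes, and also a leading gene of the Serpina6 group. Sugt1 passed in erythroid-like cells, at 78.7 (floxed) and 34.4 CPM (control), 1 of 4 at level, beside 2.07% of all tested genes. Its log2 ratio was 1.19 there, where the median of all genes was 0.24. Short of the rule, Sugt1 was also higher elsewhere, with 0.58 in proximal tubule-like, 0.54 in podocyte-like and 0.45 in stroma-like cells. In mural and renin-like cells its ratio was −0.06. Of the 20 genes of membrane repair, which include caveolins, calpains and ESCRT components, none passed in any class. In progenitor-like cells 10 were at level with a median of 0.11.

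The genes whose levels over 26 points (13 classes in 2 libraries) ran most like each of the 3 selected genes were found among 8900 genes by Pearson's r of log2 CPM. S100a6 ran most like Anxa1 (r = 0.90), followed by Lasp1 (0.88), Atxn7l1 (0.86), Arhgdib (0.83) and S100a11 (0.81). Anxa3 ran most like Slc31a2 (0.77), Klf7 (0.77) and Rhob (0.75). Myof ran most like Cep170b (0.80), Mme (0.79) and Ctsl (0.79). The points share 2 libraries and their depth, so these are descriptions. Among pairs of members, Anxa1 and S100a11 had r = 0.79 and Anxa5 and Anxa6 r = 0.73, while the lowest was Anxa6 and Myof at −0.46.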

How the data were processed

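Whole newborn kidneys were profiled with droplet 3′ single-cell RNA sequencing, 1 library per genotype. The deposited values are raw UMI counts per gene and barcode, made by the authors with Cell Ranger 6.0.2 on mm10, per the submitters' processing notes; the file headers name version 6.0.1. For the annotation and intron setting, nothing is given in the sources used here. The floxed matrix totals 115427704 UMIs and the control matrix 197745868.

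Barcodes were kept from 1000 UMIs and 500 genes upwards if mitochondrial UMIs were below 15%. The automatic threshold of scrublet marked 0 doublets in each library and so had not worked; instead, the top 8% by doublet score were dropped (1252 floxed and 1695 control). The labels state 10000 loaded cells, fewer than the barcodes kept. Cells of both libraries were clustered together (scanpy 1.11.5, 2000 variable genes without the member and family genes, 30 components, 15 neighbours, Leiden resolution 1, python-igraph 0.11.9). Clusters were named from marker lists (a mean log2 ratio from 0.5 upwards, and a lead of 1 over any other class that reached 0.5; both limits were set after a look at the clusters), and 4 stayed unnamed. Classes needed 50 cells in each library.

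UMIs were summed by class and library and scaled to CPM. Ratios have exact conditional binomial 95% intervals, levels Poisson intervals and shares Clopper-Pearson intervals (scipy 1.17.1); they cover counting error only, and no p-values are given. A floor of 3 counts stands in for 0. The interval was tested on simulated counts. The named genes are all members in every class, members of the lists, and the 5 genes most like each selected gene. Members and lists were chosen with earlier results of these data known. One gene and the cluster it leads are not reported here. Sequences and coordinates are from RefSeq tables of GRCm38.p6, matched by symbol for 10 of 10 genes. Alternatives changed the scaling, cell filter, doublet step, clustering and size rule, and left out cycling or collecting duct-marked cells; the finer clustering, the unthinned shares and the classes without its urothelium-like or Serpina6-led cells were added after the data were seen.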

Additional observations from a re-analysis of the deposited data

How the results depend on the processing

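No paired analysis was possible because each genotype had 1 library. For Anxa3 in progenitor-like cells the log2 ratio stayed past the size rule under 12 of 12 alternatives (−1.85 to −1.46; the weakest, −1.46, without doublet removal), and for Myof likewise (−2.93 to −1.87; −1.87 without doublet removal). S100a6 in loop-like cells stayed past it under 11 of 11 but moved in size: 2.83 with the stricter cell filter, 3.52 with the 10000 deepest barcodes, 2.63 without doublet removal, 2.21 at Leiden resolution 0.5, 2.93 with the members kept for clustering and 1.45 without cycling cells. Leaving out cells with a collecting duct UMI brought this class under 50 control cells, so no value was had. S100a6 in committed nephron-like cells (−0.13) passed under none and moved to 0.072 with the 10000 deepest barcodes, 0.12 without doublet removal and −0.87 without cycling cells. The cause of these moves was not tested. Of committed nephron-like cells, 777 of 847 floxed and 1333 of 1414 control cells were called cycling. The values of this class without cycling cells, for S100a6 and Myof, thus rest on the few that remained. The number of gene and class pairs past the rule was 12, between 10 and 15 under alternatives of processing, 12 at a minimum of 10 CPM, and 5 with a 2-fold limit. Calls lost in 1 of their alternatives were Myof in committed nephron-like cells (−0.87 without cells with a collecting duct UMI, against −1.59 without cycling cells), Anxa1 in podocyte-like cells (−1.16 with the 10000 deepest barcodes, against −3.33 without cells with a collecting duct UMI) and, without doublet removal, S100a6 in endothelium-like cells (−0.65) and Anxa3 (1.11) and S100a10 (−0.72) in neutrophil-like cells. Anxa3 in loop-like cells kept its call, at 2.89 with the 10000 deepest barcodes. Anxa3 in collecting system-like cells passed the rule (0.81, beside 0.64) without the urothelium-like cells, and in proximal tubule-like cells it was −0.05, beside 0.26, without the Serpina6-led cells. Depth limits the rare classes most: the neutrophil-like values of Anxa3 rest on 55 UMIs in the floxed and 17 in the control library.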
